A study of Mus musculus with 6 samples.

Results

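Collagen chain genes encode the alpha chains that assemble into the collagens of the extracellular matrix. They were chosen by name, as every gene of the deposited count table whose symbol is Col, a number, the letter a and a number. Of 17191 genes, 41 met this rule. By textbook type, 11 of them are fibrillar, 4 form the network of basement membranes and 3 a short-chain network. A further 9 are FACITs (fibril-associated collagens with interrupted triple helices), 6 are chains of beaded filaments and 8 are of other types. The low count filter, which asks for about 10 counts in at least 3 libraries, kept 28 of the 41 members and 12721 genes in all. The chains Col4a4, Col4a6 and Col26a1 were not analysed here.

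The libraries came from subcutaneous tumours of CT26, a murine colorectal cancer line, in female BALB/c mice 6 to 8 weeks old. For 3 weeks the mice had received vehicle (3 libraries) or TP-18 (3 libraries), a code-named compound given by mouth at 50 mg/kg once a day. All mice in both groups carried the tumour, and neither the vehicle's makeup nor pooling of animals is given in the labels, so the spread behind each p-value is that between libraries and may be technical. The labels name the RNA source in 3 ways, as macrophages sorted on CD11b, F4/80 and CD206, as cells captured on CD11b beads, and as the CT26 line.

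Total counts ran from 16371128 to 17597645 per library. Summed over 8 macrophage markers, all present in each library, the level was 4928 to 10560 CPM (counts scaled to library size with TMM factors) in vehicle and 4843 to 7650 CPM in TP-18 libraries. Markers of other cells were present too. The 10 fibroblast markers summed to 329.5 to 590.5 CPM in vehicle and 315.5 to 513.6 CPM in TP-18 libraries, and none was at 0 in any library. Among the 7 measured epithelial markers, Krt20 lay at 239 to 522 CPM and Krt18 at 2.23 to 6.99 CPM. Cdh1 had 0.315 to 1.41 CPM in vehicle and 2.16 to 2.29 CPM in TP-18 libraries, Krt8 and Epcam at most 1.57 CPM, and Krt19 and Cldn4 were at 0 in 5 of 6 libraries each.

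As background, collagen chains are made in the endoplasmic reticulum, where their prolines and lysines are hydroxylated before the chains wind into a helix of 3. Fibrillar procollagens are trimmed outside the cell, pack into fibrils and are crosslinked by lysyl oxidases. Network collagens form the sheets of basement membranes, FACITs coat fibrils, and collagen VI makes beaded filaments around cells. In tumours, fibroblasts are the main source of fibrillar collagen, vessels contribute basement membrane chains, and macrophages take up and degrade collagen.

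Collagen chain genes were more abundant in the TP-18 libraries as a sum. The 41 members together had 2265, 1932 and 1607 CPM in vehicle 1, 2 and 3 and 3651, 3321 and 2691 CPM in TP-18 1, 2 and 3. The lowest TP-18 library lay above the highest vehicle library, and the ratio of the means was 1.67. In shares of all counts, the members took 0.148% to 0.218% of a vehicle library and 0.288% to 0.385% of a TP-18 library. One member, Col6a3, rose in edgeR's quasi-likelihood test at an adjusted p under 0.05, a threshold passed by 14 genes (0.11% of all genes tested) and as higher by 3 (0.0236%). It passed the threshold in no refit that left out 1 library.

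At an unadjusted edgeR p under 0.05, 13 of the 28 tested members were higher and 0 were lower, against 7.56% of all tested genes that were higher and 8.7% that were lower. No member passed as lower after adjustment with edgeR, DESeq2 or any other fit run. DESeq2 called 8 members higher, beside 1.5% of the genes it tested. The groups did not overlap, with TP-18 higher, in 12 of the 28, where 11.6% of all tested genes did so, and in 0 with TP-18 lower (11.7%). With library totals in place of TMM factors, a view added after the data were seen, these became 14 of the 28 and 23.5%. The median log2 fold change of the 28 was 0.72, beside 0.02 for all tested genes, and 24 of 28 were positive, beside 52.6%.

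These counts cover only members that passed the filter. In 22 of the 28 all libraries reached the minimum. Col23a1, Col27a1 and Col28a1 reached it in every TP-18 library but in only 1 vehicle library, Col2a1 and Col11a1 in 1 vehicle and 2 TP-18 libraries, and Col9a3 in 2 vehicle and 3 TP-18 libraries. Such members could enter mainly through the TP-18 group, so that the counts and the median are a description of the filtered set. Col23a1 and Col27a1 are among the 13 members higher at an unadjusted p under 0.05 and the 12 with separate groups. In these bulk libraries more cells of a collagen-making type and more collagen RNA per cell cannot be told apart.

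**Figure D1:**
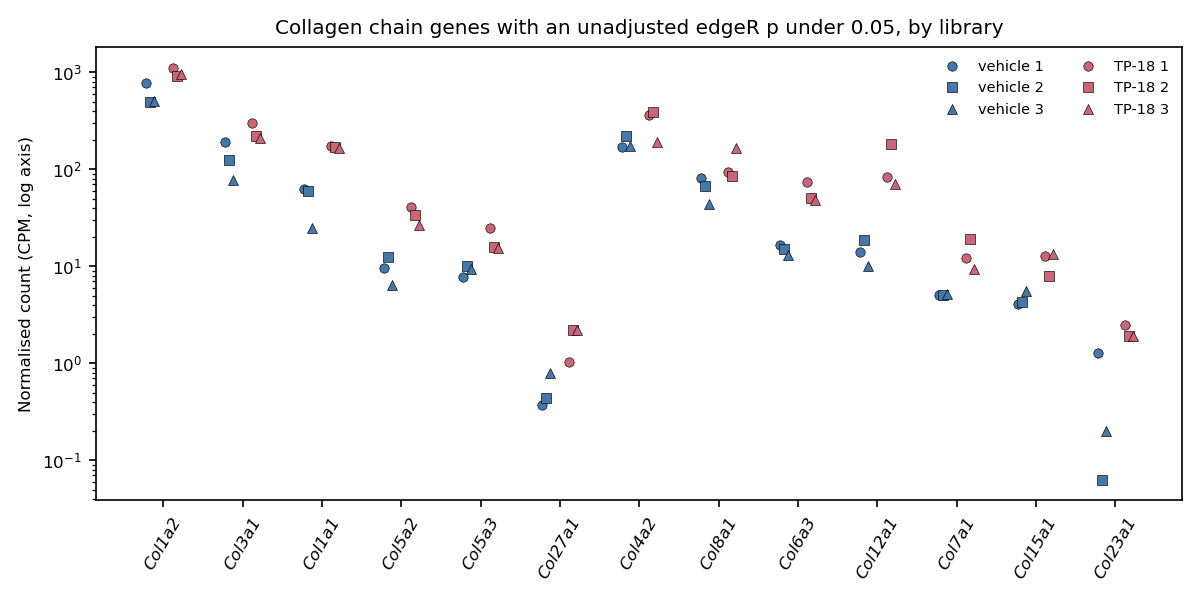
Normalised counts (CPM, log axis) of the 13 collagen chain genes with an unadjusted edgeR p under 0.05, one point per library, with vehicle in blue and TP-18 in red. The groups are separate for each gene but Col4a2, where TP-18 3 (193 CPM) lies below vehicle 2 (219 CPM). Col23a1 and Col27a1 reached the filter's minimum count in only 1 vehicle library each.

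Fibrillar chains make the load-bearing fibrils of connective tissue, and 10 of the 11 were tested. Their median log2 fold change was 0.97, and 9 were positive, beside 52.6% of all tested genes. At an unadjusted p under 0.05, 6 were higher, beside 7.56%, with 0 past the adjusted threshold, which 0.11% of all tested genes passed. Of these 6, Col27a1 reached the filter's minimum in only 1 vehicle library and in 3 TP-18 libraries. Col1a1, a chain of type I collagen, the main collagen of tumour stroma, had 63.1, 59.6 and 24.7 CPM in the vehicle libraries and 175, 169 and 165 CPM in the TP-18 libraries. Every TP-18 library was more than the sum of any pair of vehicle libraries. The log2 fold change was 1.79 ± 0.32 (SE; edgeR adjusted p = 0.107).

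Col1a2, its partner chain, was far more abundant, with 774, 495.5 and 501 CPM in vehicle and 1119, 908 and 954 CPM in TP-18 libraries. The groups were separate but closer than for Col1a1, with a log2 fold change of 0.75 ± 0.21 (SE; edgeR adjusted p = 0.196). Col3a1, the chain of type III collagen in pliable tissue and early scars, had 191, 126 and 76.8 CPM in vehicle and 298, 219 and 210.1 CPM in TP-18 libraries. Vehicle 1 lay close to the lowest TP-18 library, and the log2 fold change was 0.89 ± 0.32 (SE; edgeR adjusted p = 0.248).

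The type V chains, which start fibrils and set their width, did not all differ to the same extent. Col5a2 had 9.53, 12.5 and 6.35 CPM in vehicle and 41.2, 33.8 and 26.5 CPM in TP-18 libraries, a log2 fold change of 1.84 ± 0.28 (SE; edgeR adjusted p = 0.0787). Each of its TP-18 libraries was more than 2 times each vehicle library. Col5a3 had 7.68, 10.01 and 9.33 CPM in vehicle and 24.7, 15.7 and 15.3 CPM in TP-18 libraries (log2 fold change 1.05 ± 0.24 SE; edgeR adjusted p = 0.152). Col5a1, the most abundant of the type V chains, had 92.5, 41.5 and 46.3 CPM in vehicle and 96.0, 76.5 and 93.8 CPM in TP-18 libraries, and the groups overlapped through vehicle 1.

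Of the minor fibrillar chains, Col27a1, Col2a1 and Col11a1 had few counts. Col27a1, a chain of cartilage fibrils, had 6, 7 and 12 counts in vehicle and 19, 41 and 40 counts in TP-18 libraries (log2 fold change 1.75 ± 0.53 SE; edgeR adjusted p = 0.217). Col2a1 and Col11a1, chains of cartilage, ranged from 1 to 47 and from 0 to 44 counts with overlapping groups. Vehicle 2 held 44 of the 45 vehicle counts of Col11a1. Col11a2, another cartilage chain, reached the minimum in all 6 libraries, with 3.39 to 9.07 CPM and no separation. Its log2 fold change of -0.30 was positive without vehicle 3 (0.09).

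Network chains were led by Col4a1 and Col4a2, which wind together in every basement membrane. Col4a1 had 252, 343 and 245 CPM in vehicle and 547, 559 and 258 CPM in TP-18 libraries (log2 fold change 0.70 ± 0.30 SE; edgeR adjusted p = 0.308). Col4a2 had 169, 219 and 174 CPM in vehicle and 362, 390 and 193 CPM in TP-18 libraries (log2 fold change 0.75 ± 0.27 SE; edgeR adjusted p = 0.244). In both genes TP-18 1 and TP-18 2 were high, and TP-18 3 lay within the vehicle range. Col4a5, an X-linked chain of other type IV networks, had 98.7, 48.7 and 28.4 CPM in vehicle and 92.6, 74.1 and 61.7 CPM in TP-18 libraries, with overlap.

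Col8a1, a short-chain collagen of vessel walls and of the endothelial layer of the cornea, had 81.6, 68.0 and 43.7 CPM in vehicle and 94.9, 85.7 and 165 CPM in TP-18 libraries. Here TP-18 3, the low library of Col4a1 and Col4a2, was the high one. Its groups did not overlap, with a log2 fold change of 0.84 ± 0.31 (SE; edgeR adjusted p = 0.255). Over the 4 tested network members the median log2 fold change was 0.72, with all 4 positive, beside 52.6% of all tested genes.

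Beaded filament chains differed among themselves. Over the 4 tested, the median log2 fold change was 0.226, and 3 were positive, beside 52.6% of all tested genes. At an unadjusted p under 0.05, 1 was higher, beside 7.56%. Col6a3, the longest collagen VI chain, had 16.5, 15.04 and 13.0 CPM in vehicle and 74.1, 51.2 and 47.9 CPM in TP-18 libraries. The lowest TP-18 library was well above the highest vehicle library, and the vehicle libraries differed little. Col6a3 rose from a mean of 14.9 ± 1.76 CPM to 57.7 ± 14.2 CPM (SD over 3 libraries). The edgeR log2 fold change was 1.96 ± 0.21 (SE; adjusted p = 0.0416). With 1 library left out at a time the edgeR adjusted p was 0.0728 to 0.190, at log2 fold changes of 1.74 to 2.07.

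Col6a1, which joins Col6a3 in the same filament, had 159, 241 and 195 CPM in vehicle and 201, 257 and 77.8 CPM in TP-18 libraries. TP-18 3 was the lowest of the 6 libraries. The log2 fold change was -0.15 ± 0.39 (SE; edgeR adjusted p = 0.875), and it was 0.03 with library totals as scaling and 0.21 without TP-18 3. Col6a2, the third of the chains, had 21.5, 49.2 and 27.5 CPM in vehicle and 39.7, 42.4 and 25.2 CPM in TP-18 libraries, fully overlapping. Col6a6, an alternative to Col6a3 in some tissues, ranged from 0.984 to 6.57 CPM with overlap.

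FACIT chains ranged most widely. Over the 5 tested, the median log2 fold change was 0.513, and 4 were positive, beside 52.6% of all tested genes. At an unadjusted p under 0.05, 1 was higher, beside 7.56%. Col12a1, which coats type I fibrils in tissue under load, had 14.1, 18.8 and 9.99 CPM in vehicle and 84.05, 183 and 71.2 CPM in TP-18 libraries. The TP-18 libraries differed among themselves by more than 2 times, and each exceeded every vehicle library by more than 3 times. Its log2 fold change of 2.98 ± 0.41 (SE; edgeR adjusted p = 0.0668) was the largest of the 28. Col16a1, a FACIT of fibrils near basement membranes, had 151, 81.1 and 74.6 CPM in vehicle and 179, 123 and 138 CPM in TP-18 libraries, with overlap through vehicle 1.

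Col14a1, which regulates fibril growth, varied within both groups, with 77.3, 6.73 and 32.7 CPM in vehicle and 87.7, 17.3 and 61.7 CPM in TP-18 libraries. The low libraries were vehicle 2 and TP-18 2. Col20a1, a FACIT with little known function, had 9.28, 8.49 and 21.9 CPM in vehicle and 9.38, 8.95 and 9.39 CPM in TP-18 libraries. Its negative log2 fold change of -0.52 came with the high value in vehicle 3 and was 0.04 without that library. Col9a3, a cartilage FACIT, had 9 to 25 counts per library with overlap.

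Other types gave 3 more members at an unadjusted p under 0.05, of 5 tested, where 7.56% of all tested genes were higher. Of these 5, Col23a1 and Col28a1 reached the filter's minimum in only 1 vehicle library and in 3 TP-18 libraries. Col23a1 is among the 3 higher members. Col7a1, whose product forms the fibrils that anchor epithelia, had 5.04, 5.10 and 5.16 CPM in vehicle and 12.2, 19.0 and 9.39 CPM in TP-18 libraries. The vehicle libraries were almost equal, and the log2 fold change was 1.41 ± 0.29 (SE; edgeR adjusted p = 0.136). Col15a1, a multiplexin at the edge of vessel and muscle basement membranes, had 4.06, 4.34 and 5.56 CPM in vehicle and 12.9, 7.87 and 13.3 CPM in TP-18 libraries (log2 fold change 1.28 ± 0.28 SE; edgeR adjusted p = 0.141).

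Col18a1, the other multiplexin and the source of the fragment endostatin, had 59.4, 60.8 and 48.1 CPM in vehicle and 86.9, 54.7 and 79.3 CPM in TP-18 libraries, with TP-18 2 inside the vehicle range. Col23a1, a transmembrane collagen, had 21, 1 and 3 counts in vehicle and 46, 35 and 35 counts in TP-18 libraries (log2 fold change 1.99 ± 0.84 SE; edgeR adjusted p = 0.301). Col28a1, a collagen known from peripheral nerve, had 2, 53 and 9 counts in vehicle and 19, 23 and 11 in TP-18 libraries. Its log2 fold change of -0.49 rested on vehicle 2 and was 1.39 without it.

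**Figure D2:**
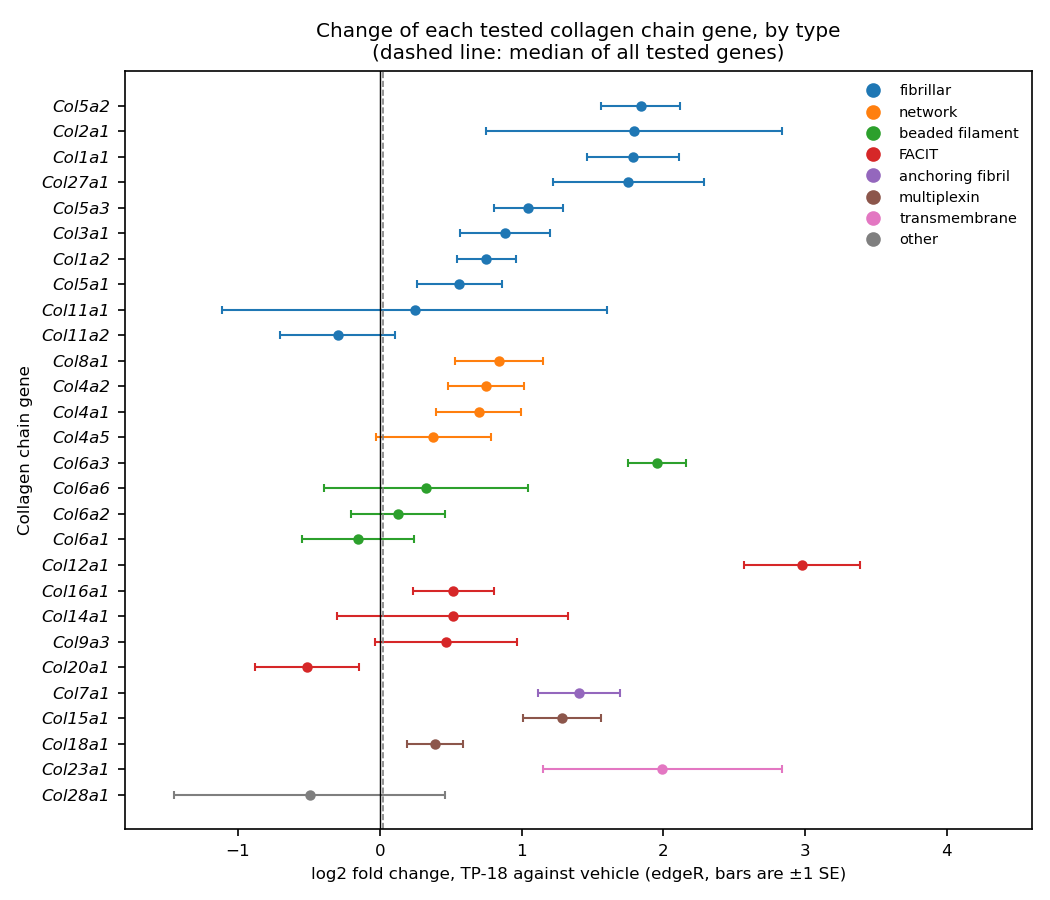
Log2 fold change (TP-18 against vehicle, edgeR, bars of 1 SE) of the 28 tested collagen chain genes, coloured by type, with the median of all tested genes as a dashed line at 0.02. Points run from -0.52 (Col20a1) to 2.98 (Col12a1), and Col6a3 stands apart from the other 3 collagen VI chains.

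The 13 members that did not pass the filter had totals of 1 to 52 counts over the 6 libraries. Col13a1, a transmembrane collagen of synapses, had 0, 5 and 3 counts in vehicle and 9, 17 and 18 in TP-18 libraries. Col4a3, a chain of kidney basement membrane, had 2, 2 and 7 counts in vehicle and 0 in each TP-18 library, where a count of 0 still allows up to 3. Col17a1, a transmembrane collagen of keratinocytes, had 1 to 14 counts and Col24a1, a minor fibrillar chain, 0 to 12. Col10a1, the marker of hypertrophic cartilage, had 1 count in all. The others, Col6a4, Col6a5, Col8a2, Col9a1, Col9a2, Col19a1, Col22a1 and Col25a1, had 0 to 8 counts per library. In the edgeR fit without a low count filter, Col13a1 (higher, edgeR adjusted p = 0.361) and Col4a3 (lower, edgeR adjusted p = 0.283) were under an unadjusted p of 0.05, with separate groups, and the others were not.

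Levels of different chains were compared on FPKM, the deposited values scaled to gene length and library total. Col1a2 led in every library, with 88.6 to 142 FPKM in vehicle and 185 to 226 FPKM in TP-18 libraries, and it made up 27.8% to 39.8% of the summed FPKM of all members. Col4a1 (34.2 to 90.04 FPKM over the 6 libraries), Col6a1 (20.9 to 68.7) and Col4a2 (24.9 to 64.4) followed by mean, then Col3a1 (12.7 to 56.4). Within libraries Col4a1 exceeded Col4a2 and Col3a1 in 6 of 6, but Col6a1 in 3 of 6, and Col4a2 exceeded Col3a1 in 4 of 6. Fibrillar chains as a type held 40.1% to 52.4% of the summed FPKM in vehicle and 46.4% to 58.1% in TP-18 libraries, and beaded filament chains 11.5% to 20.7% and 6.17% to 13.8%.

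Ratios between chains within a library do not depend on how libraries are scaled, and 8 pairs, chosen after their values were seen, were compared. Each was tested on log2 ratios with a two-sided exact permutation test, which cannot go below 0.1 for 3 against 3. Because the pairs were chosen from these same values, the p-values are a description only. The protein of type I collagen carries more Col1a1 than Col1a2 chains, but protein was not measured here. In FPKM, a measure of RNA, Col1a2 exceeded Col1a1 13.9, 9.44 and 23.1 times in vehicle and 7.25, 6.12 and 6.58 times in TP-18 libraries. The ratio was lower in each TP-18 library than in each vehicle library (exact permutation p = 0.1, adjusted over the 8 pairs 0.267).

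The ratio of Col6a1 to Col6a3 was 26.3, 43.7 and 40.7 in vehicle and 7.39, 13.7 and 4.42 in TP-18 libraries, again without overlap (exact permutation p = 0.1, adjusted 0.267). That of Col6a2 to Col6a3 was 2.35 to 5.90 in vehicle and 0.949 to 1.49 in TP-18 libraries (exact permutation p = 0.1, adjusted 0.267). Both ratios have Col6a3, the member past the adjusted edgeR threshold, as denominator, so they are not separate from its rise. Col4a1 to Col4a2 stood at 1.38 to 1.52 in vehicle and 1.30 to 1.47 in TP-18 libraries (exact permutation p = 0.5), so that both chains moved from library to library in nearly the same proportion. Col3a1 to Col1a2 lay at 0.144 to 0.238 and 0.207 to 0.250 with overlap. Col5a1 to Col5a2, at 2.59 to 7.54 and 1.76 to 2.75, overlapped as well, and so did Col6a1 to Col6a2 and Col4a1 to Col4a5.

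**Figure D3:**
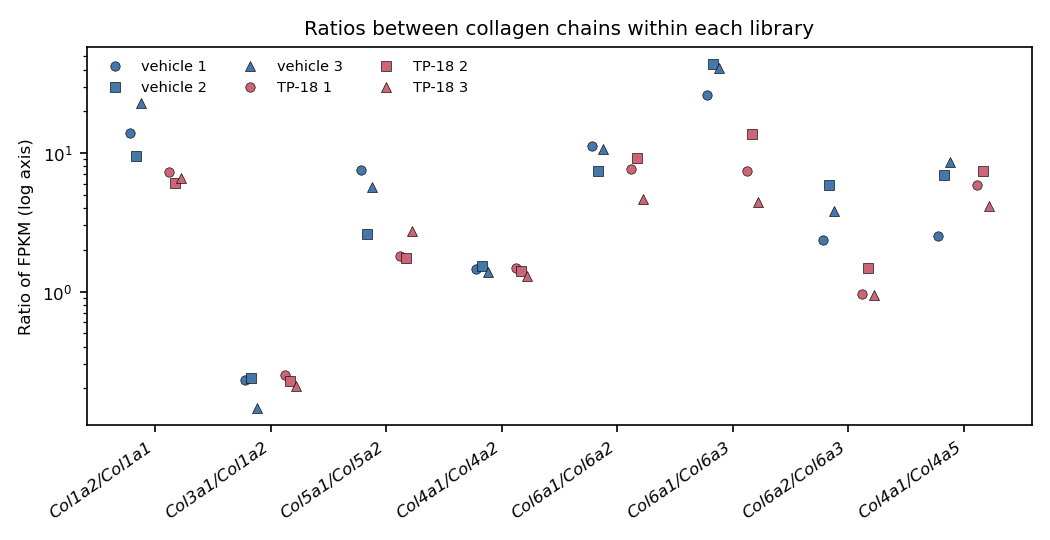
Ratio of FPKM values of chain pairs (log axis), one point per library. Col1a2/Col1a1, Col6a1/Col6a3 and Col6a2/Col6a3 separate the groups, while Col4a1/Col4a2 stays between 1.30 and 1.52 in all 6 libraries.

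On GRCm38 with GENCODE M21, all 41 members were placed through their Entrez identifiers. Col1a1 (Entrez 12842) spans 94936224 to 94953042 on chromosome 11, Col1a2 (12843) 4504814 to 4541544 on chromosome 6 and Col12a1 (12816) 79598991 to 79718831 on chromosome 9. Several members are neighbours. Col3a1 (12825; chromosome 1, 45311538 to 45349706) and Col5a2 (12832; 45374321 to 45503282) face each other tail to tail, 24614 bases apart. Their log2 fold changes were 0.89 and 1.84.

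Col4a1 (12826; chromosome 8, 11198423 to 11312826, minus strand) and Col4a2 (12827; 11312805 to 11449287, plus strand) are transcribed away from each other, and their annotated starts lie 21 bases apart. They share 22 exonic bases. Col6a2 (12834) and Col6a1 (12833) lie in tandem on chromosome 10, with a gap of 85161 bases, while Col6a3 (12835) is on chromosome 1. In 13 members some exonic bases are shared with another annotated gene, at most 6.07% of the bases, in Col9a3. Whether counting used strand is not given in the sources used here.

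RefSeq promoter sequences on GRCm38.p6 were matched for 33 of the 41 members. Shown here are the 250 bases before the start of 4 members whose groups did not overlap: Col6a3, the 1 gene past the adjusted threshold, and Col5a3, Col7a1 and Col3a1. They were picked, after their values were seen, from 8 tested members with separate groups and a window that touches no annotated exon. They lie at chr1:90843972-90844221 (minus strand), chr9:20815068-20815317 (minus), chr9:108953336-108953585 (plus) and chr1:45311288-45311537 (plus). Each is written 5′ to 3′ along the gene, with capitals where a searched motif matches on either strand.
Col6a3: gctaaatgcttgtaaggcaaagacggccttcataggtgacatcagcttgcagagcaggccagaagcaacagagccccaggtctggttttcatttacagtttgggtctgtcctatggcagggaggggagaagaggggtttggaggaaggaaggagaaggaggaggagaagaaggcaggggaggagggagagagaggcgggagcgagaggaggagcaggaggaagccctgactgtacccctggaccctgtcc
Col5a3: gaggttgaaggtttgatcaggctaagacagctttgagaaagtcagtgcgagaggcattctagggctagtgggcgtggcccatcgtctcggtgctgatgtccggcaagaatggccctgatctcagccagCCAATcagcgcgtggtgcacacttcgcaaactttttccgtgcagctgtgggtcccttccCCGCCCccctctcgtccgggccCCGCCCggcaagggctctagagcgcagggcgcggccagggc
Col7a1: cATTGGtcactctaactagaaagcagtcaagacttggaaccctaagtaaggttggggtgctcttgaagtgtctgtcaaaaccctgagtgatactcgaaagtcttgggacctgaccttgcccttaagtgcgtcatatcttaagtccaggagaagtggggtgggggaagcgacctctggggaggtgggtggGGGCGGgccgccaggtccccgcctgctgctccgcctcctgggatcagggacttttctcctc
Col3a1: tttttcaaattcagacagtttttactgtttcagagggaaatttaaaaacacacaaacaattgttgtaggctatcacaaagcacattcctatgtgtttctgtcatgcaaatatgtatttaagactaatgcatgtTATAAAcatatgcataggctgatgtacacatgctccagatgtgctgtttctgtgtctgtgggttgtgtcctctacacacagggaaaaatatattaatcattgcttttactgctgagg
The motifs searched on both strands were TATAAA (the TATA box), CCAAT (the CCAAT box), GGGCGG (a GC box) and TGANTCA (an AP-1 element), none of which contains another. Col5a3 holds 1 CCAAT and 2 GGGCGG matches, Col7a1 1 of each, Col3a1 1 TATAAA match, and Col6a3 none of the 4. Of the other 4 windows, Col8a1 holds 4 GGGCGG matches, Col27a1 and Col23a1 1 each, and Col15a1 none of the motifs. Col13a1, which was not tested, also had separate groups and a window without an annotated exon, with 1 TATAAA match. Over the 36 windows of members, 58.3% held GGGCGG, beside 32.7% of all 32851 windows. CCAAT was in 36.1% of them beside 33.8%, TATAAA in 13.9% beside 12.4%, and TGANTCA in 2.78% beside 6.75%. These are matches of letters only, and the shares were not adjusted for GC content. The median GC content was 52.4% over all windows, and in windows of members it ran from 35.2% (Col3a1) to 76.4% (Col5a1).

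Genes that process collagen did not move as a block. Of 36 tested genes on 4 lists of collagen modification, secretion, crosslinking and binding, 0 passed the adjusted edgeR threshold, in either direction. Only 0.11% of all tested genes passed it. At an unadjusted p under 0.05, 6 were higher and 3 lower, beside 7.56% and 8.7% of all tested genes, and the median log2 fold change was 0.20. The 3 lower genes, Serpinh1, Ppib and Adamts14, were not under that p with library totals or in either fit on FPKM. With library totals their edgeR p was 0.155, 0.173 and 0.126 (adjusted 0.385, 0.403 and 0.351). With DESeq2 and limma-voom all 3 stayed under an unadjusted p of 0.05. Of the 6 higher genes, P4ha3 reached the filter's minimum count in 0 vehicle and 3 TP-18 libraries and P3h2 in 1 and 3, so they entered through the TP-18 group. Crosslinking enzymes had a median of 1.42 over 5 genes. Loxl2, a lysyl oxidase that links collagen IV and fibrils, had 2.09, 3.08 and 1.65 CPM in vehicle and 6.90, 11.9 and 5.19 CPM with TP-18 (adjusted p by edgeR 0.149). Loxl1 had 1.92 to 2.27 and 4.53 to 6.74 CPM (edgeR adjusted p = 0.136). Lox had 1.23 to 6.92 and 6.01 to 21.2 CPM with overlap. The abundant members Loxl3 and Loxl4 had 69.5 to 112 and 55.9 to 63.4 CPM in vehicle, and 56.6 to 144 and 54.1 to 69.3 CPM in TP-18 libraries.

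On the list of modification and folding genes, 2 of 16 were higher at an unadjusted p under 0.05, 2 were lower, a share near that of all tested genes in both directions, and the median was 0.17. Serpinh1, the collagen chaperone HSP47, had 328, 384 and 316 CPM in vehicle and 303, 218 and 238 CPM in TP-18 libraries, so that it lay in the direction opposite to the main fibrillar chains (log2 fold change -0.44 ± 0.17 SE; edgeR adjusted p = 0.269). Ppib, a proline isomerase that helps the helix fold, had 255, 320 and 256 CPM in vehicle and 220, 208 and 207 CPM in TP-18 libraries (log2 fold change -0.39 ± 0.14 SE; edgeR adjusted p = 0.255). P4ha3, a prolyl hydroxylase subunit, had 0, 3 and 1 counts in vehicle and 15, 38 and 24 counts in TP-18 libraries, and P3h2, another prolyl hydroxylase, 2 to 11 and 18 to 25 counts. The most abundant member, P4hb, had 876 to 1252 and 893 to 1369 CPM.

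Among secretion and cleavage genes, Adamts2, the protease that trims the amino end of type I and III procollagens, had 4.30, 7.74 and 3.71 CPM in vehicle and 18.1, 27.6 and 12.0 CPM in TP-18 libraries (log2 fold change 1.87 ± 0.39 SE; edgeR adjusted p = 0.138). Adamts14, a related protease, had 25.2 to 41.5 and 20.9 to 24.6 CPM (edgeR adjusted p = 0.272). Pcolce, which aids trimming of the other end, had 190 to 315 and 262 to 305 CPM, and Mia3, needed for export of procollagen, 128 to 171 and 148 to 170.3 CPM. None of the 9 tested receptor and uptake genes reached an unadjusted p of 0.05. Of all tested genes, 7.56% were higher and 8.7% lower at that p. Itgb1, the beta subunit of collagen integrins, had 814 to 867 and 735 to 896 CPM, and Mrc1, a macrophage receptor that takes up collagen and encodes the sort marker CD206, 721 to 1452 and 630 to 898 CPM.

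**Figure D4:**
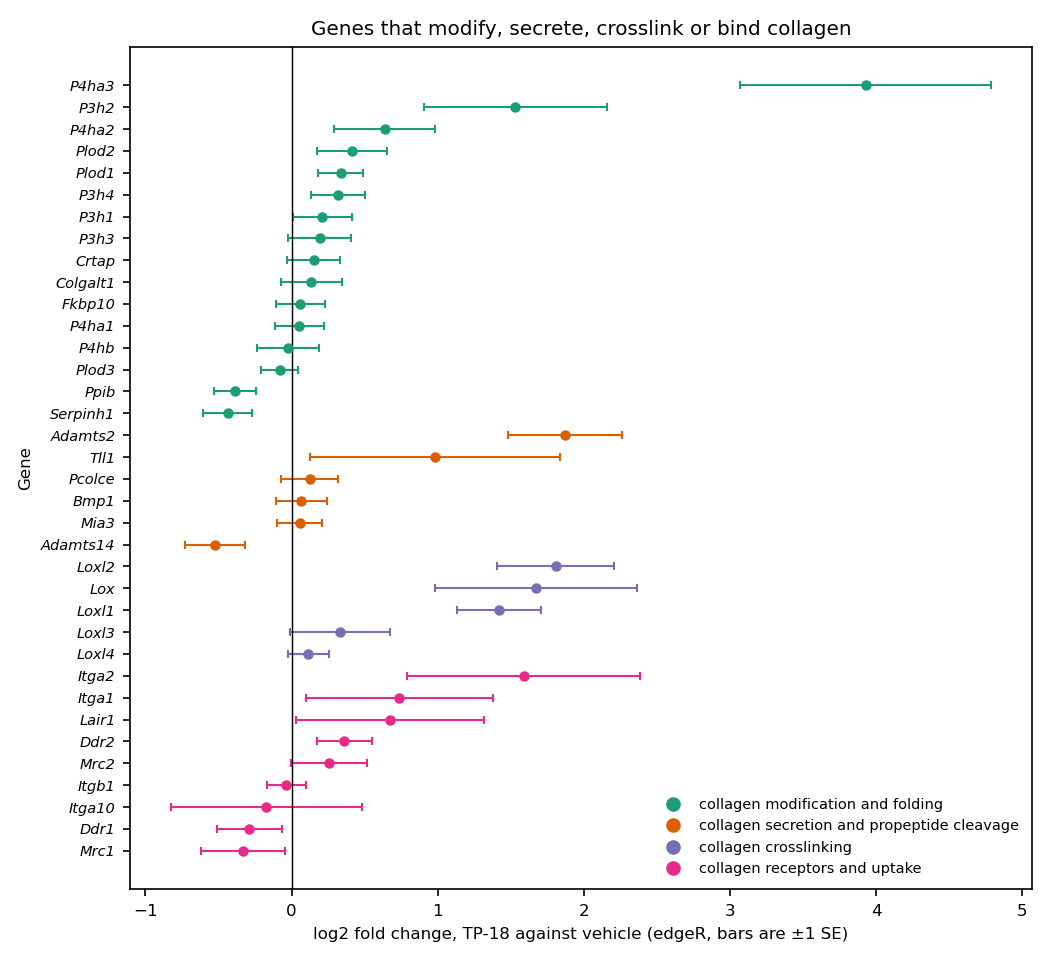
Log2 fold change (TP-18 against vehicle, edgeR, bars of 1 SE) of the 36 tested genes that modify, secrete, crosslink or bind collagen, coloured by list. P4ha3 (3.93), Adamts2, Loxl2, Lox, Itga2, P3h2 and Loxl1 lie above 1.4, and Adamts14 (-0.53), Serpinh1 and Ppib are the genes below 0 with an unadjusted p under 0.05. P4ha3 reached the filter's minimum count in 0 vehicle libraries, and P3h2 and Itga2 in 1 each. In TP-18 these genes reached it in 3 libraries, so they entered through that group.

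Markers of other cells were set beside the collagen values. The summed fibroblast markers overlapped between groups, with means of 416.7 ± 150.5 and 417.5 ± 99.2 CPM (SD, n = 3 each). Pdpn held much of this sum. Without it, a view added after the data were seen, the sums were 211, 238 and 163 CPM in vehicle and 327, 382 and 214 CPM in TP-18 libraries, still overlapping, with a ratio of means of 1.51 beside 1.67 for the collagen members. By gene, 5 of these 10 were higher and 1 lower at an unadjusted p under 0.05, beside 7.56% and 8.7% of all tested genes. Postn had 2.83, 5.79 and 2.18 CPM in vehicle and 15.7, 16.9 and 11.1 CPM in TP-18 libraries. Pdpn, the lower one, had 119, 353 and 166 CPM in vehicle and 96.5, 132 and 101 CPM in TP-18 libraries, and it is also made by macrophages. Of the 10 log2 fold changes, 8 were positive, beside 52.6% of all tested genes, and 2 were negative, Pdpn (-0.95) and Fap (-0.72). Postn had the largest (2.01), and Dcn (0.32) and Dpt (0.14) the smallest positive ones. The median log2 fold change of the 10 was 0.67, beside 0.72 for the collagen members.

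Pericyte and smooth muscle markers summed to 15.2 to 60.7 CPM in vehicle and 39.8 to 61.9 CPM in TP-18 libraries, with 2 of 8 higher at an unadjusted p under 0.05 (7.56% of all tested genes). Endothelial markers summed to 35.5, 188 and 66.4 CPM in vehicle and 190, 178 and 107 CPM in TP-18 libraries, with 1 of 8 higher, near that share. Of the pericyte and smooth muscle log2 fold changes, 7 of 8 were positive (median 0.725). All 8 endothelial ones were positive (median 0.567), beside 52.6% of all tested genes. None of these markers was at 0 in any library. TP-18 3 was the low TP-18 library both for endothelial markers and for Col4a1 and Col4a2. Vehicle 2 was the high vehicle library for these markers and both chains. It had 343 CPM of Col4a1, beside 252 and 245 CPM in vehicle 1 and 3. TP-18 1, 2 and 3 had 547, 559 and 258 CPM of Col4a1. Macrophage markers gave 0 of 8 higher and 1 lower at an unadjusted p under 0.05, beside 7.56% and 8.7% of all tested genes. Skeletal muscle markers summed to 45.1, 79.1 and 65.3 CPM in vehicle and 57.1, 12.6 and 10.5 CPM in TP-18 libraries, so that TP-18 1 lay in the vehicle range and the other two below it. All 5 had negative log2 fold changes (median -1.34), where 52.6% of all tested genes were positive, and none was at 0 in any library. At an unadjusted p under 0.05, 1 of the 5 was lower, beside 8.7%. The part of fibroblasts, pericytes, endothelial cells and muscle in the collagen values was not tested.

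**Figure D5:**
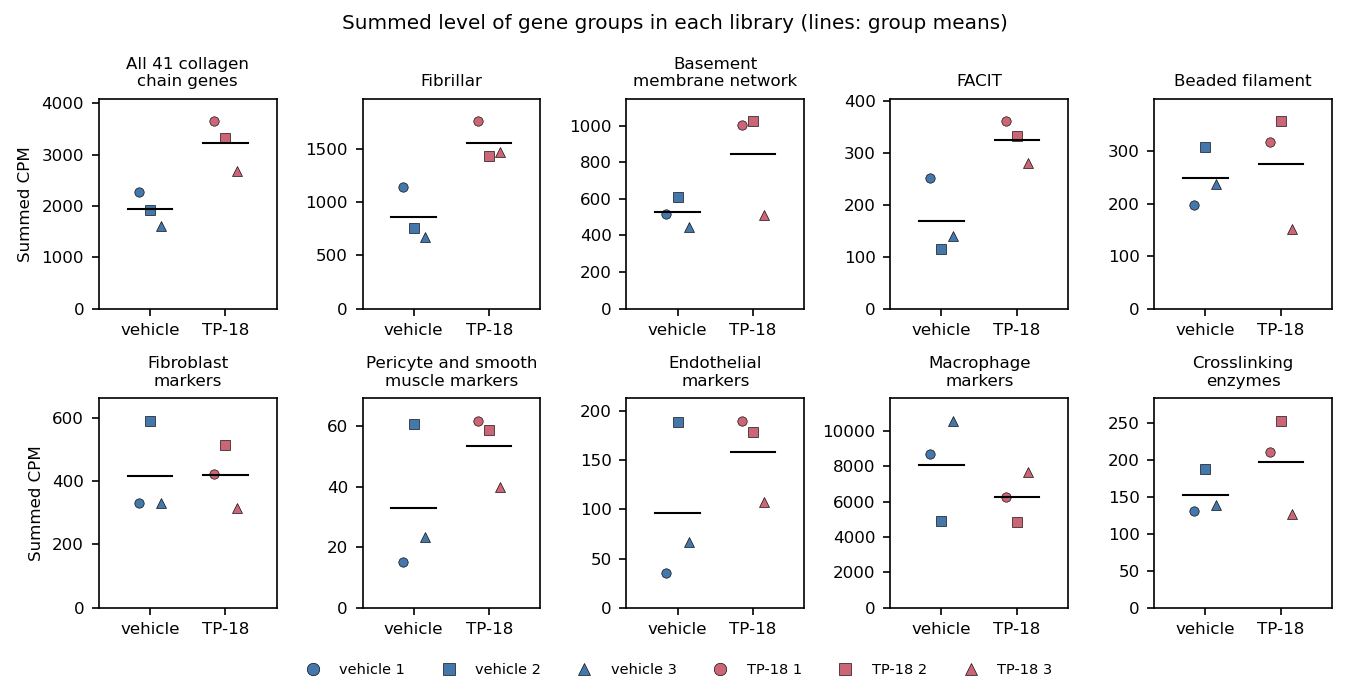
Summed CPM of collagen groups, marker lists and crosslinking enzymes in each library, with lines for group means and axes from 0. All 41 collagen chain genes together, the fibrillar and the FACIT chains separate the groups, while the basement membrane network and beaded filament chains and the marker sums overlap.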

How the data were processed

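Whole-transcriptome RNA was sequenced in 6 libraries. The authors deposited raw counts per gene with FPKM beside them. The tools listed per the submitters' processing notes are fastp, HISAT2 and HTSeq, and the build is GRCm38, without versions or settings. Which annotation was counted is not stated there. Deposited FPKM equals count over library total and 1 length per gene in 100% of values, within a relative tolerance of 1e-06.

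The main test was that of edgeR 4.0.16 (R 4.3.3) on the counts: filterByExpr (minimum count 10, minimum total 15), TMM factors, the quasi-likelihood test of TP-18 against vehicle without covariates, and Benjamini-Hochberg adjustment over all 12721 tested genes. The standard error is the absolute log2 fold change over the square root of F. The test was tried on simulated data first. Replicates differed by more than sampling noise. Alternatives were other scalings, filters, DESeq2 1.42.0, limma 3.58.1 (voom, or log2(FPKM + 1) and log2(FPKM + 0.1)), a replicate block and each library left out.

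Members and lists were chosen with earlier results of these data known. Members with an unadjusted p under 0.05 and the abundant ones of each type are given by library. Of pathway genes, those under that p and the 2 most abundant per list are named. Marker genes were named after their values were seen. Depth sets the precision of low counts, and counting error alone is covered by the limit for a count of 0. Figures used matplotlib 3.10.9 in Python 3.11.15.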

Additional observations from a re-analysis of the deposited data

How the results depend on the processing

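Of the 28 tested collagen chain genes, 21 kept their direction in every alternative that tested them (15, or 14 for Col2a1, which the filter on CPM left out) and 7 changed it in at least 1, none of them past the threshold. The number called higher, 1 by edgeR with TMM factors, was 8 with DESeq2 (of 187 genes called higher, 1.5% of those tested), 3 without a low count filter, 2 with the replicate block and 0 with limma on log2(FPKM + 1) or log2(FPKM + 0.1). It was 0 with any 1 library left out, so the call of Col6a3 was lost whichever library was dropped. In the same refits the calls over all genes fell as well. DESeq2 called Col12a1, Col15a1, Col1a1, Col1a2, Col5a2, Col5a3, Col6a3 and Col7a1. The block called Col6a3 and Col12a1 (adjusted p = 0.0235). Same-numbered libraries deviated together only in part (correlations 0.161, 0.390 and -0.152), so the numbers were not taken as pairs. The calls over all genes, 14, became 4 with library totals, 566 with DESeq2, 2 with either limma fit on FPKM, 27 without the filter, 3 with the block and 0 to 8 with 1 library left out. The median of the members, 0.72, was 0.90 with library totals, where the median of all genes went from 0.02 to 0.20, 0.91 with log2(FPKM + 0.1), and 0.61 (without vehicle 3) to 0.97 (without vehicle 1).

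Directions that reversed were those of Col6a1 with library totals (0.0259), Col28a1 with limma-voom (0.468), log2(FPKM + 0.1) (0.146) and the replicate block (0.159), and P4hb and Itgb1 with library totals (0.158 and 0.140), log2(FPKM + 1) (0.145 and 0.135) and log2(FPKM + 0.1) (0.146 and 0.136). With 1 library left out the values ran from -0.261 to 0.541 for the beaded filament median, -0.364 to 4.83 for Col11a1, -0.125 to 0.53 for Col6a2, -0.714 to 0.727 for Col6a6, -1.06 to 1.39 for Col28a1, -0.232 to 0.0955 for P4hb, -0.077 to 0.122 for Mia3, -0.665 to 0.0928 for Col11a2, -0.772 to 0.0427 for Col20a1, -0.0677 to 0.284 for Pcolce, -0.529 to 0.0542 for Mrc1, -0.107 to 0.0352 for Itgb1 and -0.51 to 0.205 for Col6a1. The causes were not tested. Depth limits the 13 untested members.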
